A study of Mus musculus with 54 samples.

Results

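In chow-fed mouse livers that had lost folliculin in hepatocytes (LiFKO), 5737 of the 26445 TFE3 chromatin immunoprecipitation (ChIP-seq) peaks overlapped no peak of any of the other 5 TFE3 lists. They were chosen by position alone, as peaks sharing not even 1 bp with a TFE3 peak of chow Control liver or of the 4 FPC diet groups (Control, LiFKO, and each of these with an added virus for HA-nSREBP-1c). They made up 21.7% of the chow LiFKO list, in a series whose 6 TFE3 lists hold 121380 peaks.

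Chow LiFKO and chow Control mice carried floxed Flcn alleles and received 1.5e11 genome copies of an adeno-associated virus of serotype AAV8, with Cre in LiFKO and GFP in Control, under the hepatocyte promoter TBG. For ChIP-seq the livers were taken from freely fed mice, and 4 libraries of each genotype on chow were pooled into 1 list. The FPC diet (rich in fructose, palmitate and cholesterol) was given for 9 days, with 3 ChIP libraries in each group. These mice received 2.5e11 genome copies of the Cre or GFP virus, or 1.5e11 copies of it plus 1.0e11 copies of a virus for HA-tagged nuclear SREBP-1c under an ApoE/AAT promoter. RNA-seq came from mice kept for 17 to 18.5 weeks on chow or on AMLN (a steatohepatitis diet rich in fat, fructose and cholesterol), after a fast of 4 to 6 h. It covers 3 libraries each of chow LiFKO, chow Control, AMLN DKO, AMLN LiFKO and AMLN Control. All RNA-seq mice were Flcn floxed, and the DKO mice also lacked Tfe3 in the whole body, also in cells that the hepatocyte promoter does not reach. Expression was thus measured in fasted mice and binding in fed mice, and no expression data were taken on FPC diet.

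TFE3 is a basic helix-loop-helix leucine zipper factor of the MiT-TFE family, which binds E-box sequences such as CACGTG and is known for driving lysosomal, autophagic and mitochondrial genes. Folliculin, encoded by Flcn, activates the Rag GTPases that let mTORC1 phosphorylate TFE3 and hold it in the cytoplasm, so loss of folliculin lets TFE3 enter the nucleus. SREBP-1c, the lipogenic factor of the liver, also belongs to the helix-loop-helix leucine zipper class.

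The FPC lists carry a doubt that touches the rule. In 3 of the 4 FPC TFE3 lists (Control, LiFKO and Control+1c), the file header names an input library in the pooled ChIP set and a TFE3 library as its control, and the header of the HA list of LiFKO+1c names a TFE3 library in its pooled set. If only the chow Control and FPC LiFKO+1c lists were used, 7024 peaks were left. Their share near a transcription start was then 24.3%, and their share overlapping an HA-nSREBP-1c peak 0.868%.

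The word "only" in the description of these sites holds for overlap, not for distance. Peaks are short windows of fixed width (187 bp in the chow LiFKO list), and 1373 members (23.9%) had a peak of another TFE3 list within 200 bp, without touching it. Another list came within 1000 bp of 2037 members (35.5%), which left 3700 (64.5%) with none. The nearest peak belonged to the FPC LiFKO+1c list for 2473 members and to FPC LiFKO for 1831, the lists with the most peaks, and to chow Control for 663. At the edge of the rule, the 323 members with another list's peak 1 to 20 bp away had a median score of 20, and the 394 peaks left out for an overlap of at most 20 bp had a median of 19.5.

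The score, the authors' own value for each peak, comes from the same peak calling as the rule and is given as a description. It was lower in members. The members' median score was 12.8 (2.09 to 83.8), and that of the rest of the list was 20.3 (2.27 to 245.8). Among members it was 20.3 with another list within 200 bp, 14.2 with one farther off but within 1000 bp, and 10.3 with none within 1000 bp. Members made up 49.9% of the lowest-scoring decile of the chow LiFKO list and 3.1% of the highest. The members were thus mostly low-scoring peaks. Those with the highest scores were mostly near misses: 84.1% of the 82 members in the highest decile had another list's peak within 200 bp. The share was 37.6% in the 6th decile and 46.9% in the 7th.

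**Figure D1:**
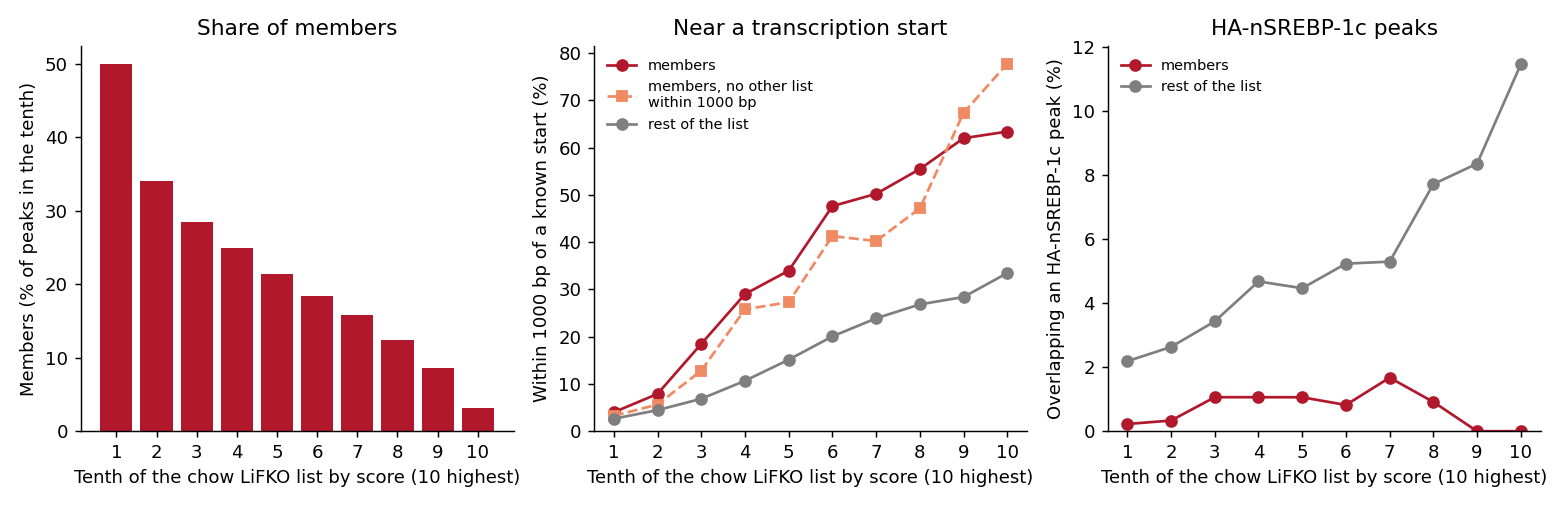
By deciles of the chow LiFKO list in order of score, members as a percentage of peaks (left), and the percentages of members and of other peaks within 1000 bp of a known start (middle, also for members with no other list within 1000 bp) and overlapping an HA-nSREBP-1c peak (right). Members make up 49.9% of the lowest and 3.1% of the highest group, and in each group their share near starts is above, and their share overlapping HA peaks below, that of the rest.

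Each of the 10 members with the highest scores was such a near miss, with another list's peak 9 to 183 bp away. The highest, at chr11:50026456-50026642 (mm9), scored 83.8 and lay 9 bp from an FPC Control peak and 2220 bp upstream of the start of Sqstm1, the autophagy receptor p62. Sqstm1 expression did not pass the test in LiFKO against Control on chow (log2 fold change 0.21, SE 0.11, limma adjusted p = 0.197). The next, at chr17:56723825-56724011 with a score of 68.8, lay at the start of Safb2, a scaffold attachment factor. It was followed by peaks at the start of Selenof (a selenoprotein of the endoplasmic reticulum), whose symbol the deposited table holds as a date, with a score of 67.0, Smarca4 (the ATPase of SWI/SNF chromatin remodelling complexes) with 66.5, Ubn1 (a histone chaperone subunit) with 65.9 and Stam (an endosomal sorting adaptor) with 65.0. A peak 1098 bp upstream of the start of Setd5 scored 64.4, one 263 bp upstream of the start of Pex10 (a peroxisome biogenesis ligase) 63.6, and one 108717 bp downstream of the start of Susd1 63.4. The last of the 10, at chr5:123157598-123157784 with a score of 63.3, lay at the start of P2rx4. Of these 10 genes, Smarca4 (log2 fold change 0.50, SE 0.09, limma adjusted p = 0.00128) and P2rx4 rose in chow LiFKO, and the other 8 did not pass the test. Over all 13815 genes tested 12.5% rose and 13.2% fell, and 10 genes are too few to tell from these shares.

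Where no other list came within 1000 bp, the 10 highest-scoring members were weaker, with scores of 37.8 to 49.1. These were looked up after their values were seen. The strongest, at chr16:20535327-20535513, lay 131 bp upstream of the start of Ap2m1, a clathrin adaptor subunit. Others lay at the starts of Slc35b1 (a nucleotide sugar transporter of the endoplasmic reticulum), Farsb (a phenylalanyl-tRNA synthetase subunit), Cep250, Prrg2, Kif9 and Polg, the mitochondrial DNA polymerase. Only 2 of the 10 were away from a known start, 2353 bp downstream of that of Tlcd1 and 13078 bp upstream of that of Kpna2. One, at chr5:30481565-30481751 with a score of 44.1, lay between Hadha and Hadhb. These neighbouring genes are read in opposite directions and encode the subunits of the mitochondrial trifunctional protein of fatty acid beta-oxidation.

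Members were more promoter-proximal than the rest of the list. A start was counted as known where the deposited gene position (mm9) could be given a strand from RefSeq, which held for 9940 of 13815 expressed genes (72.0%), so all shares near a start are underestimates. Within 1000 bp of a known start lay 1464 members (25.5%) and 3901 other peaks (18.8%). Members with another list within 200 bp reached 48.3%, and those with none within 1000 bp had 15.8%, below the rest of the list. Because scores differ so much between members and the rest, the shares were also taken within deciles of the score. In the 6th decile (scores 18.5 to 21.5) 47.6% of members and 20.1% of other peaks lay near a start, and members were ahead in each of the 10 deciles. The 3700 members with no other list within 1000 bp were also ahead of the rest in each decile, with 41.3% in the 6th, though the highest decile held only 9 of them. Gene bodies held 53.0% of members and 53.1% of the rest, so the difference was at the starts. These shares describe pooled lists without replicates, and no test was made of them.

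The members near a start leaned to its downstream side. Among peaks within 1000 bp of a start, the centre was downstream in 67.6% of members, 54.5% of the rest, and 44.6% of the peaks present in all TFE3 lists. The share was 70.1% in members with another list within 200 bp and 62.8% in those with none within 1000 bp. The median centre was 106 bp downstream of the start in members and 37 bp downstream in the rest. Members that cover the start itself were few, 4.27%, against 5.19% of the rest. The rule leaves out every peak that touches a peak of another list, so the positions of members are tied to where those peaks lie. The part of the rule in the downstream lean and in the share covering the start was not tested.

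**Figure D2:**
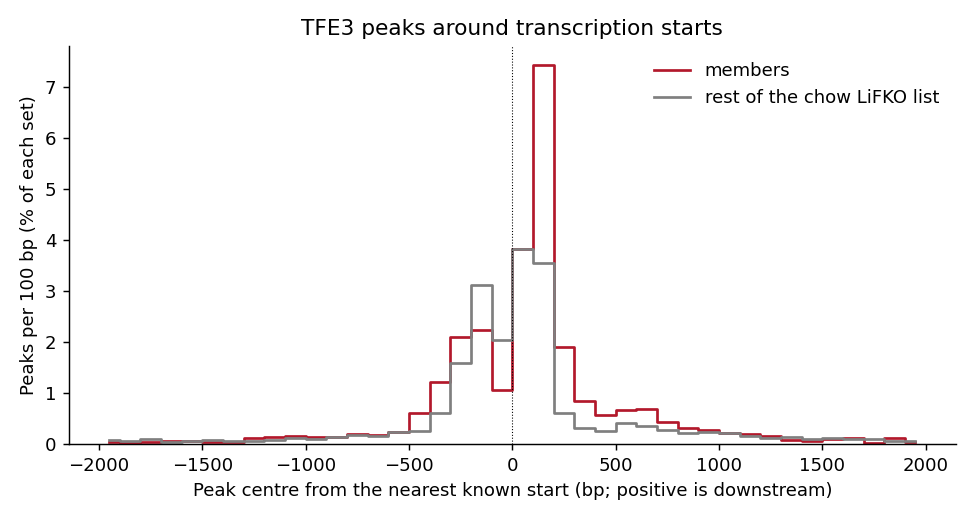
Percentage of members and of the rest of the chow LiFKO list whose centre falls in each 100 bp bin around the nearest known start, with positive values downstream. Both sets pile up around the start, and the members' distribution has its larger side downstream, with a median at 106 bp against 37 bp.

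Members rarely met nuclear SREBP-1c. Of the 5737 members, 41 (0.715%, exact 95% interval 0.513 to 0.968%, counting error only) overlapped a peak of either HA-nSREBP-1c list, against 1232 of 20708 other peaks (5.95%, 5.63 to 6.28%). Among peaks found in all TFE3 lists the share was 12.3%. It was lower for members in every decile of the score, and was 0 of 229 members in the 9th decile and 0 of 82 in the highest, against 8.36% and 11.5% of other peaks there. For a count of 0, an approximate upper limit is 3 divided by the number of members, 1.31% in the 9th decile and 3.66% in the highest. This limit is not an exact interval like those above. The share was 0.811% in members with no other list within 1000 bp. Against the HA list of Control+1c alone, whose header raises no such doubt, 29 members (0.505%) and 869 other peaks overlapped. The HA lists came from FPC-fed mice, a diet on which these sites had by rule no overlapping TFE3 peak.

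The E-box CACGTG was searched in the promoters of genes with a member, and its share there was lower than at starts with other chow LiFKO peaks, without a test. In the RefSeq promoters (GRCm38.p6, 250 bases before to 50 after the outermost start, 1 for each of the 9940 genes), CACGTG, which reads the same on both strands, was found in 8.08% of 1560 promoters with a member within 1000 bp of the start. It was in 15.9% of the 3809 promoters with other chow LiFKO peaks only, in 6.48% of the 4571 with no chow LiFKO peak, and in 10.3% of all. At the 638 promoters with a member and no peak of any other TFE3 list within 1000 bp, the share was 5.49%. The window holds the centre of a member in only 343 of the 1560 promoters, and the centre of another chow LiFKO peak in 1664 of the 3809. In these, a comparison added after the others were seen, CACGTG was found in 8.16% of the 343 and in 18.5% of the 1664. In the 214 promoters with a member centred in the window and no peak of any other TFE3 list within 1000 bp, it was 7.48%. The longer palindrome TCACGTGA, which contains the shorter one, was in 1.03% of promoters with a member and in 0.313% (2 promoters) of the 638. It was in 3.68% of those with other chow LiFKO peaks only, 0.941% of those with no chow LiFKO peak and 2.00% of all. The variant CATGTG, searched on both strands, was in 7.05% of promoters with a member, 10.7% of the 214 and 8.79% of all. The median GC content of the windows was 62.0% with a member, 61.7% with other peaks only and 59.0% with no chow LiFKO peak. The windows come from another build than the peaks, and in the 5364 genes whose lengths in the builds differed by at most 100 bp the CACGTG shares were 9.23% with a member, 5.48% with a member and no other list, 16.8% with other peaks only and 6.35% with none.

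The 250 bases before the start are shown for 6 named genes whose lengths in the builds differed by at most 100 bp. In each the centre of the member falls in that stretch and no other chow LiFKO peak lies within 1000 bp of the start. Capitals mark the palindromic E-box CACGTG. In GRCm38.p6 they are chr5:30155003-30155252 (plus strand) for Hadhb, chr6:97806808-97807057 (plus) for Mitf, chr16:20535230-20535479 (plus) for Ap2m1, chr1:78488898-78489147 (minus) for Farsb, chr9:121916306-121916555 (minus) for Cyp8b1, and chrX:139085237-139085486 (minus) for Serpina7.
Hadhb: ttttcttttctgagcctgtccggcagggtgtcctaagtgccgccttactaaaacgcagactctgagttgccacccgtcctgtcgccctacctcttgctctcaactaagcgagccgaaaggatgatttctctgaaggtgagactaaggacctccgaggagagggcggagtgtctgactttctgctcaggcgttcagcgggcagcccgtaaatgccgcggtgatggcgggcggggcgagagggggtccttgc
Mitf: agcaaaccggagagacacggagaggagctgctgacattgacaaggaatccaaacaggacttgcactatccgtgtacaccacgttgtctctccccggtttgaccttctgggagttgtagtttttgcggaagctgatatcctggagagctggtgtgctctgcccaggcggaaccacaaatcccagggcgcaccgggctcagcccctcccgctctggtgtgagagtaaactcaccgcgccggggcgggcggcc
Ap2m1: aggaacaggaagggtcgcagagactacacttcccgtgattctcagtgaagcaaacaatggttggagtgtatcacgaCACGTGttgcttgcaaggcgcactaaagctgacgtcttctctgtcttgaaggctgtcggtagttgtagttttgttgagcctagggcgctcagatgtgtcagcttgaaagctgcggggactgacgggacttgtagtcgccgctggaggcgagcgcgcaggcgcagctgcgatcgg
Farsb: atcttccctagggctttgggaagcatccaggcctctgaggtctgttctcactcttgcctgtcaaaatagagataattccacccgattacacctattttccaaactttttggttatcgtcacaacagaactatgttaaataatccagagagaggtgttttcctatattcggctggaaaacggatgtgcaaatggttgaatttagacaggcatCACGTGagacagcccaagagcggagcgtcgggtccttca
Cyp8b1: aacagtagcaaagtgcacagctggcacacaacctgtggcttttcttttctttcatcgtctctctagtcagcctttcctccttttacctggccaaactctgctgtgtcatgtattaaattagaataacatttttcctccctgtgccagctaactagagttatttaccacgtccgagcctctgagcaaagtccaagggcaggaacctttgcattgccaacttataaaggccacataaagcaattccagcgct
Serpina7: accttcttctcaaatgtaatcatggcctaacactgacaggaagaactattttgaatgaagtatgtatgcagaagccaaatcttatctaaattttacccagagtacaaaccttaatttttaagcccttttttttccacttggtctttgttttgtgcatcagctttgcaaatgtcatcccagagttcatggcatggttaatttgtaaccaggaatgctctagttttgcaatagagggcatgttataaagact
The member's centre lies 130 bp before the start in Hadhb, 128 in Mitf, 131 in Ap2m1, 152 in Farsb, 76 in Cyp8b1 and 48 in Serpina7. Ap2m1 has a CACGTG that begins 174 bases before the start, and Farsb has one that begins 39 bases before it. The stretches of Hadhb, Mitf, Cyp8b1 and Serpina7 hold none, although the member at Hadhb scored 44.1. Rhoq and Apol7a meet the same conditions but are not shown, and their stretches hold none either. Wherever the member was centred, 28 named promoters of like gene length had no other chow LiFKO peak within 1000 bp. Of these, 4 held CACGTG in the searched window. Serpina7 and Cyp8b1 are poorer in GC (36.0% and 44.8%) than Mitf and Hadhb (59.6% and 58.8%).

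Expression was then read at the 1560 genes whose start lies within 1000 bp of a member, which the rule did not use. Levels are the authors' log2 values, normalized across libraries so that their distributions match, and the depth behind them is unknown. Over all 13815 genes tested, 12.5% rose and 13.2% fell in chow LiFKO against chow Control (limma, Benjamini-Hochberg adjusted p under 0.05). Of the genes with a member, 188 rose (12.1%) and 252 fell (16.2%), and their median log2 fold change was -0.09, against -0.05 over all genes. Both shares are near the background. Among all 9940 genes with a known start 12.7% rose and 14.3% fell. The 3809 genes with other chow LiFKO peaks only differed in balance, with 623 risen (16.4%) and 516 fallen (13.5%), and the 4571 with no chow LiFKO peak had 9.98% risen and 14.2% fallen. The 638 genes with a member and no other TFE3 list at the start had 66 risen (10.3%) and 114 fallen (17.9%), with a median of -0.13. The median expression of these sets differed as well, from 10.4 (log2) for genes with a member to 9.19 for genes with no chow LiFKO peak. The part of expression level in these shares was not tested.

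**Figure D3:**
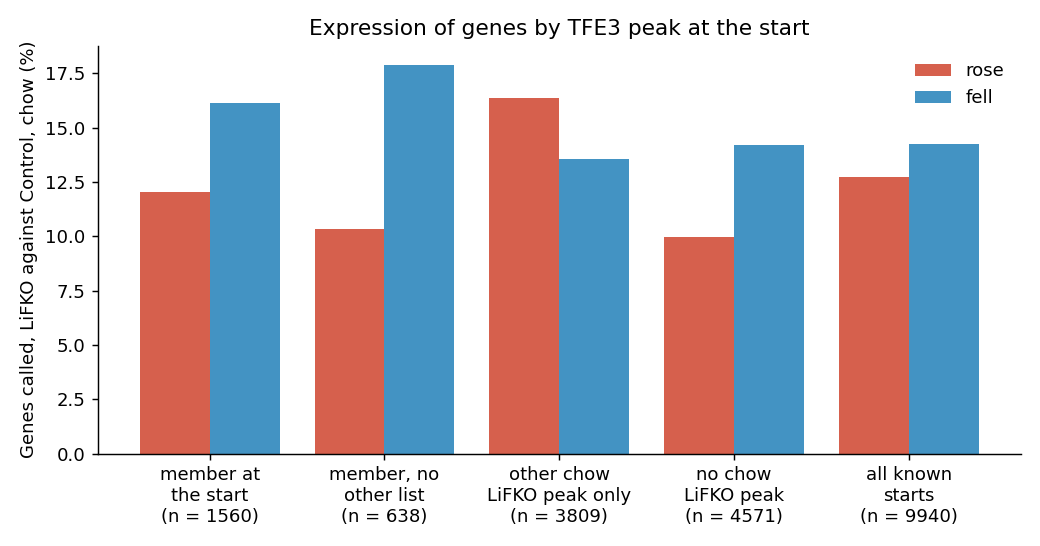
Percentage of genes called higher or lower in chow LiFKO than in chow Control, by the TFE3 peak within 1000 bp of the start. Genes with a member had more falls than rises (16.2% and 12.1%), as did genes with no chow LiFKO peak (14.2% and 9.98%) and all genes with a known start (14.3% and 12.7%). Genes with other chow LiFKO peaks only had more rises (16.4%) than falls (13.5%).

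A stronger member did not go with more rises. In the lowest, middle and highest tertiles by the score of the best member at the start (520 genes each), 11.2%, 12.9% and 12.1% of genes rose, and 17.3%, 17.5% and 13.7% fell. On AMLN diet 145 of the 1560 genes rose (9.29%, against 10.1% of all genes) and 174 fell (11.2%, against 9.63% of all). In DKO against LiFKO on AMLN diet 89 rose (5.71%, against 5.05% of all) and 71 fell (4.55%, against 5.97% of all). A diet difference in the response to Flcn loss was called for 6 of the 1560 genes, higher on chow in 5 and lower in 1, against 0.76% and 0.282% of all genes. These 6 genes (0.385%) are few, and the share moved with single libraries. It was 0.256% without chow LiFKO library 2, 0.192% without chow Control library 2 or AMLN LiFKO library 1, 0.128% without AMLN Control library 1 or 2, and 1.79% without AMLN Control library 3, while the share of all genes, 1.04% in the full fit, ran from 0.195% to 2.42% without 1 library. The shares for DKO also moved: 2.95% rose without DKO library 2, 3.59% without DKO library 3 or AMLN LiFKO library 1 and 3.27% without AMLN LiFKO library 3, and 3.01% fell without DKO library 2 or AMLN LiFKO library 1. The shares of all genes for DKO moved too, to 2.74 to 4.18% risen and 4.27 to 5.09% fallen without 1 library.

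Part of the chow response of these genes was also called on AMLN diet. Of the 188 that rose on chow, 98 (52.1%) also rose on AMLN diet, against 53.1% of all 1267 genes with a known start that rose. Of the 252 that fell, 89 (35.3%) also fell on AMLN diet, against 40.1% of all. DKO livers were then lower than LiFKO livers in 53 of the 98 (54.1%), against 425 of 673 (63.2%) for all genes with a known start, and higher in 45 of the 89 (50.6%), against 292 of 568 (51.4%). These shares were not tested against each other. The comparison of DKO with LiFKO shares the AMLN LiFKO libraries with that of LiFKO with Control, so their directions are not independent.

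The labels were checked on the targeted genes. Flcn averaged 10.41 ± 0.23 in chow LiFKO and 11.44 ± 0.11 in chow Control, 9.49 ± 0.40 in AMLN DKO, 10.42 ± 0.16 in AMLN LiFKO and 10.98 ± 0.07 in AMLN Control (log2, SD, n = 3 each). It fell in LiFKO on both diets (log2 fold change -1.03 on chow, limma adjusted p = 0.000394, and -0.57 on AMLN diet, adjusted p = 0.0257). Tfe3 measured 10.20, 9.88 and 9.89 in AMLN DKO and 9.92, 10.02 and 10.07 in AMLN LiFKO (log2 fold change -0.01, limma adjusted p = 0.967), so its level does not set DKO apart, and whether the counted exons include the deleted part is not given in the sources used here. Hepatocyte markers, led by Alb, were the most abundant of the marker lists, with library means of 17.9 to 18.3 in chow LiFKO and 18.2 to 18.3 in chow Control, and of the 8 measured Cyp3a11 and Ass1 rose while Alb and Serpina1a fell. Of 10 measured macrophage markers Cd68 and Gpnmb rose on chow and none fell, with library means of 9.95 to 10.4 in chow LiFKO and 9.34 to 10.1 in chow Control. Of 7 endothelial markers Lyve1 and Stab2 rose. No stellate (of 8) or cholangiocyte (of 5) marker passed the test, and the part of other cell types in the gene changes was not tested. In whole liver, fewer cells of a type and less RNA per cell cannot be told apart.

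Of the genes with a member at the start, P2rx4 had the smallest p among those that rose. P2rx4 encodes an ATP-gated cation channel found on lysosomes and the plasma membrane. It measured 13.18, 13.19 and 13.28 (log2) in chow LiFKO and 12.08, 12.20 and 12.18 in chow Control, and 12.26, 12.19 and 12.30 in AMLN DKO, 12.93, 12.95 and 13.02 in AMLN LiFKO, and 11.92, 11.89 and 12.04 in AMLN Control. LiFKO and Control did not overlap on either diet, and DKO lay between them. The log2 fold change was 1.06 (SE 0.07, limma adjusted p = 1.3e-07) on chow, 1.02 (adjusted p = 4.39e-07) on AMLN diet, and -0.72 (adjusted p = 1.65e-05) in DKO against LiFKO.

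Il12rb2, a chain of the interleukin-12 receptor, showed a far larger change over a weak peak (chr6:67326164-67326350, score 4.05, no other list within 10129 bp). It measured 12.55, 12.04 and 11.37 in chow LiFKO and 7.42, 7.23 and 6.63 in chow Control, and 6.33, 5.61 and 7.01 in AMLN DKO, 9.88, 10.87 and 11.18 in AMLN LiFKO, and 6.69, 6.51 and 6.43 in AMLN Control. Both LiFKO groups were far above all other libraries. The log2 fold change was 4.89 on chow (SE 0.39, limma adjusted p = 8.46e-07), 4.10 on AMLN diet and -4.33 in DKO against LiFKO.

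Cyp46a1, cholesterol 24-hydroxylase, had the largest rise of the 8 named risers, with a peak 450 bp upstream of the start (score 32.4) with an FPC list 19 bp away. It measured 13.53, 13.10 and 13.70 in chow LiFKO and 7.49, 7.99 and 8.08 in chow Control, and 10.84, 12.99 and 13.59 in AMLN DKO, 13.59, 13.51 and 14.20 in AMLN LiFKO, and 7.79, 8.58 and 7.0 in AMLN Control. The log2 fold change was 5.59 on chow (SE 0.54, limma adjusted p = 5.13e-06). DKO stayed far above AMLN Control, and its difference from LiFKO did not pass the test (log2 fold change -1.29, limma adjusted p = 0.145). Without DKO library 3 it passed (-1.85, adjusted p = 0.0442).

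The other named risers were called in the same direction on both diets and lower in DKO than in LiFKO. Appl2, an endosomal adaptor of signalling receptors, rose by 1.79 (log2, SE 0.15, limma adjusted p = 1.19e-06) on chow. Its member had an FPC LiFKO+1c peak 47 bp away. Acox3, a peroxisomal acyl-CoA oxidase, rose by 1.10, with a member centred 80 bp upstream of the start (score 15.7) and no other list within 88485 bp. Aifm1, the mitochondrial apoptosis-inducing factor, rose by 0.76, Rhoq, a small GTPase, by 1.38, and Spp2, a secreted phosphoprotein, by 1.34. The members of these genes were near misses of Control peaks, 42 bp (Aifm1) and 5 bp (Rhoq) from chow Control and 13 bp (Spp2) from FPC Control.

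Serpina7, which encodes thyroxine-binding globulin, fell most among the 8 named fallers, again over a weak peak (chrX:135619730-135619916, score 3.56, sequence above). It measured 5.25, 5.82 and 5.68 in chow LiFKO and 10.50, 11.37 and 10.70 in chow Control, and 12.81, 11.01 and 10.49 in AMLN DKO, 7.01, 6.77 and 6.30 in AMLN LiFKO, and 12.82, 12.33 and 11.78 in AMLN Control. LiFKO libraries were below all others on both diets. The log2 fold change was -5.27 on chow (SE 0.46, limma adjusted p = 1.98e-06), -5.62 on AMLN diet and 4.75 in DKO against LiFKO.

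Adh4, a class II alcohol dehydrogenase that also handles retinol, measured 11.69, 11.24 and 11.72 in chow LiFKO and 12.74, 12.83 and 12.92 in chow Control. Its log2 fold change was -1.28 on chow (SE 0.12, limma adjusted p = 3.76e-06) and -0.71 on AMLN diet, and DKO did not differ from LiFKO past the threshold (adjusted p = 0.0584, and 0.045 without DKO library 1). Clcn2, a chloride channel, had a log2 fold change of -1.11 on chow, and Glo1, the methylglyoxal-detoxifying glyoxalase, of -0.85. Rnf103, a ubiquitin ligase of the endoplasmic reticulum, had a log2 fold change of -0.74, Apol7a, an apolipoprotein L family member, of -1.49, and Gcsh, a subunit of the glycine cleavage system, of -0.52, all with adjusted p under 0.05. Narf had one of -1.10 and is described with the diet-dependent genes.

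**Figure D4:**
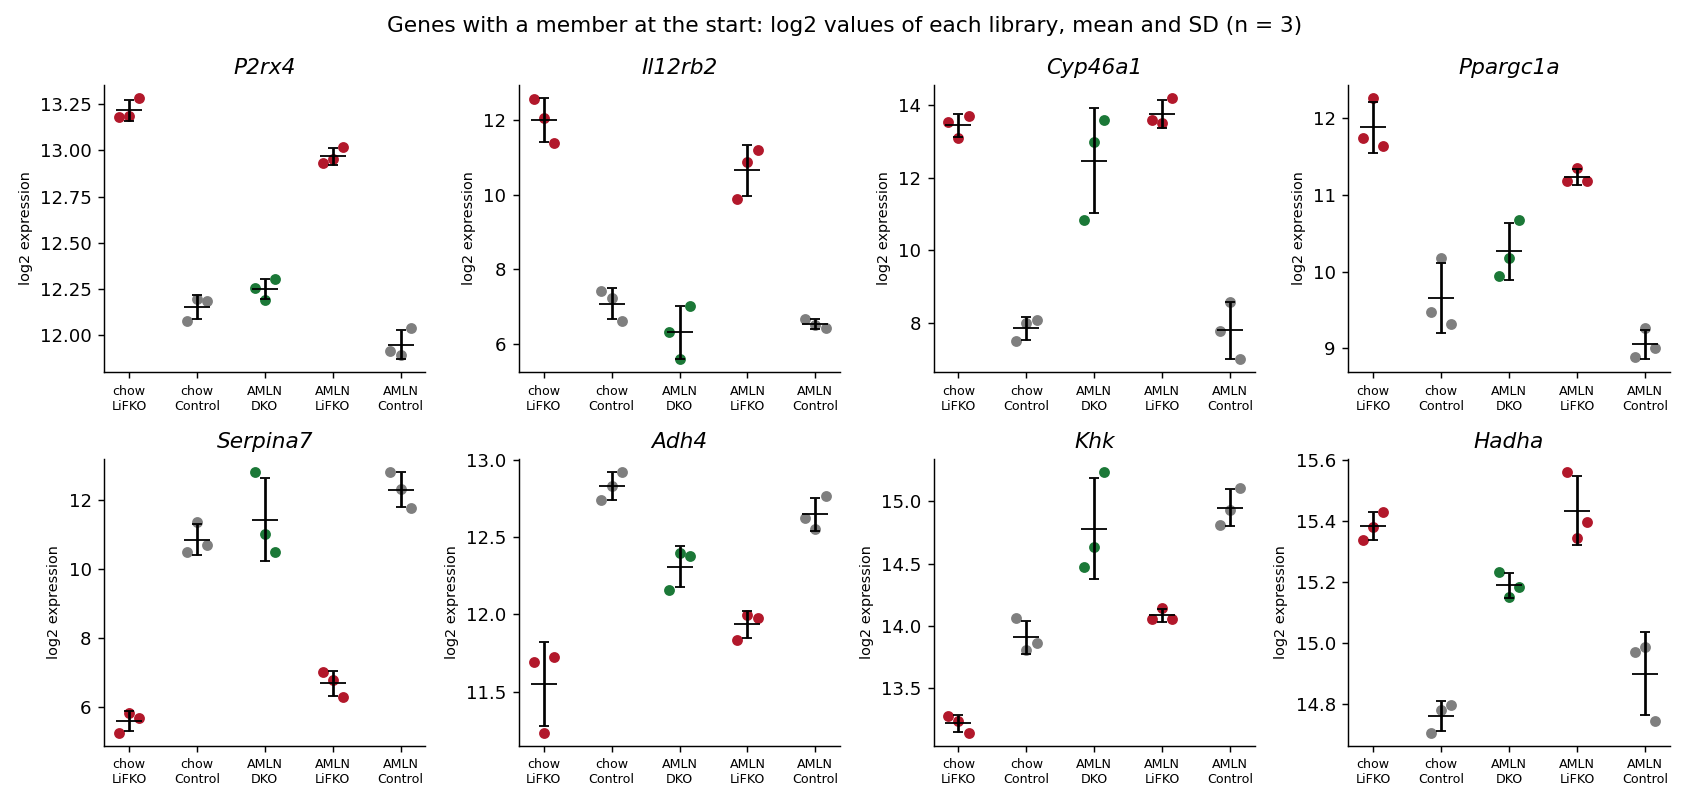
Log2 expression of 8 genes with a member within 1000 bp of the start, in each of the 15 libraries, with mean and SD of the 3 libraries of each group. P2rx4, Il12rb2, Cyp46a1, Ppargc1a and Hadha are higher, and Serpina7, Adh4 and Khk lower, in LiFKO than in Control on both diets.

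Among 16 lists of metabolic and stress genes, 284 genes had a known start and 30 of them a member at it, of which 11 rose (36.7%) and 4 fell (13.3%) on chow. Of all 284 listed genes 111 rose (39.1%) and 39 fell (13.7%), so the count with a member follows the lists' own rate. Over all genes with a known start 15.7% had a member. Of the lysosome, the organelle most tied to TFE3, 3 of 54 genes (5.56%) had a member. Another 43 (79.6%) had other chow LiFKO peaks only, against 38.3% of all genes. The rule leaves out every chow LiFKO peak that overlaps another TFE3 list, and its part in these shares was not tested. The 3 genes with a member were Gm2a, Man2b1 and Atp6v1d. Man2b1, lysosomal alpha-mannosidase, rose by 0.78 (log2, SE 0.11, limma adjusted p = 0.000123), and Atp6v1d, a V-ATPase subunit, by 0.85 (adjusted p = 4.67e-05), while Gm2a, the GM2 ganglioside activator, had 0.46 (adjusted p = 0.121, and 0.0115 with a replicate block over all groups, 0.118 within the chow groups). In autophagy 1 of 26 genes had a member, Wipi1, a phosphoinositide-binding autophagosome protein that rose by 0.78 (adjusted p = 0.000315). None of 20 genes of the folliculin, Rag and mTORC1 circuit, of 16 genes of triglyceride synthesis and lipid droplets and of 11 hepatocyte identity factors had one.

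Of the 4 MiT-TFE factors, Mitf and Tfeb had a member within 1000 bp of the start. Neither changed past the threshold on chow: Mitf had a log2 fold change of -0.24 (limma adjusted p = 0.633) and Tfeb of -0.31 (adjusted p = 0.101).

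Members lay at 5 of 22 mitochondrial genes (22.7%) and 6 of 23 fatty acid oxidation genes (26.1%), beside 15.7% of all genes, without a test of the difference. Ppargc1a, which encodes the coactivator PGC-1alpha, carried a weak member (score 4.18, no other list within 4855 bp). It measured 11.74, 12.26 and 11.64 in chow LiFKO and 9.47, 10.18 and 9.32 in chow Control, and 9.95, 10.18 and 10.67 in AMLN DKO, 11.18, 11.36 and 11.18 in AMLN LiFKO, and 8.89, 9.26 and 9.01 in AMLN Control. It rose by 2.23 on chow (log2, SE 0.23, limma adjusted p = 8.45e-06), rose by 2.18 on AMLN diet and was lower in DKO than in LiFKO (-0.97, adjusted p = 0.013). Dlst, a subunit of the 2-oxoglutarate dehydrogenase complex, rose by 0.84 on chow, and Cs, citrate synthase, by 0.50 (adjusted p = 0.0195, and 0.0505 to 0.0951 without chow LiFKO library 3, chow Control library 1 or chow Control library 2). The other 2, Tfam and Esrrg, had -0.23 and 0.06 and did not pass the test, although Tfam did without chow Control library 2 (-0.32, adjusted p = 0.0485).

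Of the oxidation genes, Hadha and Hadhb share the member between them, so these 2 promoters count 1 site. Hadha measured 15.34, 15.38 and 15.43 in chow LiFKO and 14.71, 14.78 and 14.80 in chow Control. Hadhb measured 13.47, 13.55 and 13.46 in chow LiFKO and 12.73, 12.87 and 12.92 in chow Control. They rose together, by 0.62 (log2, SE 0.09, limma adjusted p = 0.000142) and 0.65 (SE 0.11, adjusted p = 0.000779), and on AMLN diet by 0.53 and 0.50, without a called difference between DKO and LiFKO (adjusted p = 0.0927 and 0.248). Eci1, an enoyl-CoA isomerase of the same pathway, rose by 0.79 on chow. Acot2 and Hadh had 0.23 and 0.31, and these and Slc25a20 did not pass the test. Acot2 has near-identical paralogs, between which reads may be split.

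Of the 5 lipogenic and sugar genes with a member, 3 fell and 1 rose on chow, beside 7 fallen and 4 risen of the 21 lipogenic genes measured and 3 fallen and 1 risen of the 19 of glucose metabolism. Khk, ketohexokinase, the first enzyme of fructose breakdown, measured 13.27, 13.23 and 13.14 in chow LiFKO and 14.06, 13.80 and 13.87 in chow Control. It fell by 0.69 on the log2 scale on chow (SE 0.15, limma adjusted p = 0.0037) and by 0.87 on AMLN diet, and DKO was higher than LiFKO by 0.70. Acss2, the acetyl-CoA synthetase of the cytosol, had -0.78 (adjusted p = 0.00614) and Slc25a1, the mitochondrial citrate carrier, -0.39 (adjusted p = 0.00807) on chow, both lipogenic genes. The third lipogenic gene, Me1 (malic enzyme), had -0.79 on chow and did not pass the test, except without chow LiFKO library 3 (-1.37, adjusted p = 0.0112). Pcx, pyruvate carboxylase, rose by 0.55 (adjusted p = 0.00428). Mvk and Dhcr7 of cholesterol synthesis, Mttp of lipoprotein assembly, Tat of tyrosine breakdown and Nfe2l2, the oxidative stress factor, did not pass the test on chow. Mvk did without chow Control library 2 (-0.88, limma adjusted p = 0.016).

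Cyp8b1, the sterol 12-alpha-hydroxylase of bile acid synthesis, averaged 14.09 ± 0.58 in chow LiFKO and 13.14 ± 0.57 in chow Control (log2, SD, n = 3 each), and the groups overlapped. Its rise of 0.95 (limma adjusted p = 0.0396) was lost without chow LiFKO library 1 (adjusted p = 0.0829) or 3 (0.171), or without chow Control library 1 (0.129) or 2 (0.155). The call was also lost in a fit of only the groups compared (limma adjusted p = 0.0712) and without the variance trend (0.0638). Of the clock genes, Per3 fell (log2 fold change -0.98, adjusted p = 0.00053) and Arntl had 0.61 (adjusted p = 0.377).

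Farther out, 25 more listed genes had a member farther than 1000 bp but within 10000 bp of the start, and 9 of them rose (36.0%) and 3 fell (12%), near the rate of the lists as a whole. The 15 with the smallest p on chow were looked at more closely, so their share of calls says nothing further. In 11 of the 15 another chow LiFKO peak lay within 1000 bp of the start. Ctsa, the lysosomal protective protein cathepsin A, rose by 1.49 (log2, SE 0.09, limma adjusted p = 9.19e-08) and Cpt1a, the gate enzyme of mitochondrial fatty acid import, by 0.78 (adjusted p = 0.00191), with a member 3067 bp upstream of the Cpt1a start and no other chow LiFKO peak within 1000 bp of that start. Atp6v0b, Atp6v0d1, Arsa, Gabarapl1, Bckdha, Acadvl and Apoa4 rose as well. Mid1ip1, an activator of acetyl-CoA carboxylase, had -1.69 (adjusted p = 0.00033), and Acot3 (a member of a family of near-identical copies) and Eci2 also fell. The Eci2 call (adjusted p = 0.0165) was lost without chow LiFKO library 3 (0.0647), chow Control library 2 (0.0664) or chow Control library 3 (0.061).

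The difference between diets was tested on expression on chow and AMLN diet, whereas the sites were chosen against chow Control and FPC lists. No TFE3 ChIP was taken on AMLN diet and no RNA on FPC diet, so the test cannot bear on the chow-only label. Few genes with a member passed it. Arhgef5, a guanine nucleotide exchange factor, measured 11.33, 11.30 and 11.53 in chow LiFKO and 10.28, 10.41 and 10.39 in chow Control, and 11.06, 10.88 and 10.92 in AMLN LiFKO and 11.22, 10.84 and 10.71 in AMLN Control. It was higher in LiFKO on chow (log2 fold change 1.03) and not on AMLN diet (0.03), a difference of 1.00 (SE 0.16, limma adjusted p = 0.0172). Its member, at chr6:43215698-43215884 with a score of 13.6, had no other list within 26211 bp.

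Ttc39a, a tetratricopeptide repeat protein, measured 9.04, 9.65 and 8.58 in chow LiFKO, 6.12, 6.29 and 5.29 in chow Control, 9.13, 9.40 and 9.46 in AMLN LiFKO, and 8.98, 8.56 and 8.31 in AMLN Control. The chow Control libraries were the low ones, and the difference between diets was 2.48 (SE 0.45, limma adjusted p = 0.0203). Tubb2a, a beta-tubulin with near-identical paralogs, measured 10.14, 10.83 and 10.19 in chow LiFKO, 9.35, 9.94 and 10.58 in chow Control, 10.16, 10.44 and 9.92 in AMLN LiFKO, and 13.71, 12.97 and 12.62 in AMLN Control. Of these groups the AMLN Control libraries stood apart, and the difference between diets was 3.35 (SE 0.59, adjusted p = 0.0203). AMLN DKO measured 12.59, 11.34 and 10.67, from near AMLN Control down to near AMLN LiFKO. DKO against LiFKO did not pass the test (log2 fold change 1.36, limma adjusted p = 0.051). It passed without DKO library 3 (1.79, adjusted p = 0.0159) and among genes above the median mean (adjusted p = 0.0442). Fam124a had a difference between diets of 1.32 (adjusted p = 0.0303), with -1.03 on AMLN diet and 0.30 on chow. Narf, a protein that binds farnesylated prelamin A, had -0.83 (adjusted p = 0.0489), with -1.10 on chow and -0.27 on AMLN diet. The sixth called gene, 1700024P16Rik, had the smallest p of the 6 (2.11, SE 0.34, adjusted p = 0.0148), but predicted names were left out of the choice of genes, and it was named after its values were seen. No single library left out ended the call for Arhgef5. The Ttc39a call was lost without AMLN LiFKO library 1 (adjusted p = 0.05), AMLN Control library 1 (0.0639) or AMLN Control library 2 (0.0533), and the Tubb2a call without chow Control library 2 (0.0619), AMLN Control library 1 (0.0578) or AMLN Control library 2 (0.0533). The Fam124a call held only without chow Control library 1, AMLN LiFKO library 3 or AMLN Control library 3 and otherwise had adjusted p of 0.0539 to 0.0871. The Narf call held only without chow LiFKO library 3 or AMLN Control library 3 and otherwise had 0.0788 to 0.118.

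**Figure D5:**
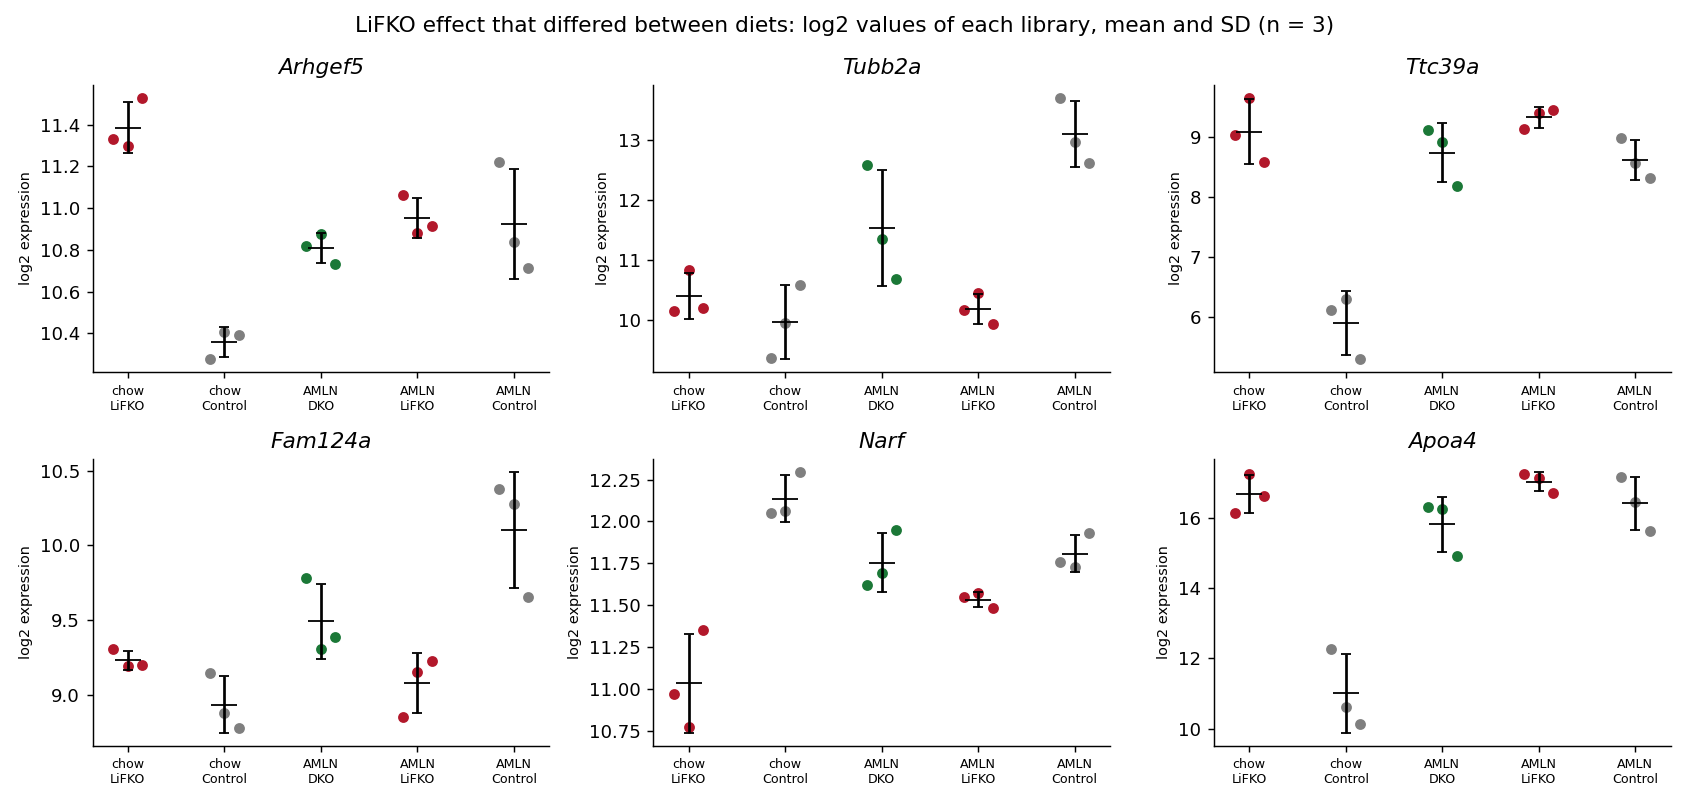
Log2 expression of 5 genes with a member at the start and of Apoa4 (member 5099 bp upstream) in each of the 15 libraries, with mean and SD of 3 libraries. Arhgef5 is higher in LiFKO on chow only. For Ttc39a and Apoa4 chow Control is the low group, and for Tubb2a and Fam124a AMLN Control has the highest mean.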

How the data were processed

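TFE3 and HA-tag ChIP-seq (peak lists of pooled libraries) and RNA-seq of mouse liver were used, 54 samples in all. Per the file headers, the authors called and merged ChIP peaks with HOMER on mm9 against input and against Tfe3 knockout ChIP, and each deposited peak carries a HOMER score, read within 1 list only. The deposited expression table holds log2 values normalized by quantiles, with no counts, so the depth is unknown and no interval from depth is given. The submitters' processing notes name STAR 2.6.0c, featureCounts and limma for RNA, and Trimmomatic, Bowtie2, SAMtools, bedtools and HOMER 4.11 (chow) or 4.4 (FPC) for ChIP. The chow and FPC lists thus differ in software version and pooled library number as well as in diet.

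Peaks were compared by overlap of at least 1 bp (coordinates counted from 1, end included). Starts are the outer ends of the deposited gene positions with strand from RefSeq. No gene with a known start lies on chromosome 18, so peaks there count as having none near. The authors' deposited log2 values of 13815 genes in all 15 libraries were fitted with limma 3.58.1 (R 4.3.3, group means, trend), two-sided, with Benjamini-Hochberg adjustment over all genes, and the fit was tested on simulated data. Per-peak shares were computed with Python 3.11.15 and pandas 2.3.3 and have exact 95% intervals where given. The labels give replicate numbers but do not say that the libraries are separate animals, so p-values measure the spread between these libraries, which may be technical. Same-numbered chow LiFKO and chow Control libraries deviated together (correlations of deviations from the group means 0.113 to 0.237, and -0.188 to 0.043 for other numbers). In no other pair of groups did all 3 same-numbered correlations exceed 0.1. The labels do not say that the chow numbers are pairs. The main fit used no pairs, and a block within chow was added as an alternative, from this pattern in the data.

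Named genes are, among genes with a member within 1000 bp of the start, the 8 that rose and the 8 that fell with the smallest p on chow, the 4 with the smallest p for the difference between diets, the listed genes with a member there, and up to 15 more within 10000 bp by smallest p on chow, plus the neighbours of the 10 highest-scoring members, leaving out predicted names (Rik, Gm, numbered clones). The members and lists were chosen with earlier results of these data known. Alternatives were the overlap distance, score and start distance, the excluding lists, the samples fitted, the variance trend, a replicate block, a filter on low values and leaving out each library.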

Additional observations from a re-analysis of the deposited data

Results flagged for a closer look

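The effect of Flcn loss differed between chow and AMLN diet, by limma's test of the difference itself, for 5 named genes with a member at the start and for 1 farther out. Such calls made up 0.385% of the 1560 genes with a member, against 1.04% of all genes. The calls of Ttc39a, Tubb2a, Fam124a and Narf were each lost without some single libraries. Without the variance trend the Fam124a and Narf calls were also lost (limma adjusted p = 0.0536 and 0.0886). The difference (chow minus AMLN, log2) was 1.0 for Arhgef5, 2.48 for Ttc39a, 3.35 for Tubb2a, 1.32 for Fam124a and -0.83 for Narf. For Apoa4, a lipoprotein component with a member 5099 bp upstream of the start and another chow LiFKO peak at the start, it was 5.05 (SE 0.73, limma adjusted p = 0.00984). Apoa4 measured 16.14, 17.24 and 16.62 in chow LiFKO and 12.26, 10.60 and 10.14 in chow Control, and 17.24, 17.13 and 16.71 in AMLN LiFKO and 17.15, 16.44 and 15.62 in AMLN Control, so chow Control was the low group.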

How the results depend on the processing

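The number of members was 3700 with no other list within 1000 bp and 1536 with a score above the list's median, and the share near a start was then 15.8% and 53.1%. Allowing 200 bp, 1.499% met an HA peak. At the 1560 genes with a member, DKO against LiFKO gave 3.53% risen and 3.01% fallen in a fit of only the groups compared, and 8.80% and 6.91% among genes above the median mean expression. Over all genes the same settings gave 3.4% and 4.57%, and 8.47% and 9.35%. The share called for the difference between diets was 0.962% with only the groups compared, 0.256% without the variance trend, 0.838% among genes above the median mean and 0.627% at starts with no other TFE3 list, against 0.385%. Over all genes the first 3 of these settings gave 1.48%, 0.521% and 2.01%, against 1.04%. The causes were not tested. Leaving out 1 library gave 9.49 to 10.8% risen and 11.5 to 12.9% fallen on chow, 6.92 to 8.46% and 7.37 to 9.23% on AMLN diet, 2.95 to 4.68% and 3.01 to 3.72% for DKO, and 0.128 to 1.79% for the difference. With chow numbers as pairs, a replicate block within the chow groups (added after seeing the data) gave 11.7% risen and 16.0% fallen on chow and changed no call of a named gene. The replicate block over all groups, whose numbers pair no other groups, gained the call of Gm2a and gave 11.8% risen and 15.3% fallen on chow, 8.97% and 10% on AMLN diet, 5.19% and 4.29% for DKO and 0.577% for the difference. Over all genes the block within chow gave 12.4% risen and 13.2% fallen on chow, and the block over all groups 12.1% and 12.6%. Of 639 log2 fold changes of named genes under other settings, 629 kept direction and call, 5 lost the call, 5 gained it and none reversed. Of 996 with a library left out, 45 lost the call, 6 gained it and no called value reversed. The alternatives on excluding lists and on starts were chosen after seeing the data. Unknown depth, pooled peak lists and 3 libraries per group limit these values.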
